A study of Mus musculus with 6 samples.

Results

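The genes described here encode 10 proteins of the lipid droplet, the organelle in which a cell stores triglyceride: *Fitm1*, *Fitm2*, *Plin2*, *Plin4*, *Plin5*, *Cidec*, *Cideb*, *G0s2*, *Pnpla2* and *Hsd17b13*. They were chosen by name as 10 of the 16623 genes in the expression table, and all 10 were found. The livers of 3 wild-type and 3 SIRT7-/- mice (SIRT7 KO in the labels), 5 to 6 months old, had been digested with collagenase, and equal numbers of hepatocytes and nonparenchymal cells went into droplet-based single-cell RNA sequencing. SIRT7-/- mice lack the histone deacetylase SIRT7, and the study used them as a model of fatty liver disease that arises without a special diet. The deleted part of the gene, the sex of these mice and whether they shared a litter or a day of preparation were not given in the sources used here, so the p-values measure the spread between these 6 animals. The question addressed here was how these droplet genes differ between the genotypes, in hepatocytes of both ends of the liver lobule and in the other cells of the liver.

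Triglyceride made in the endoplasmic reticulum buds off as a droplet bounded by a phospholipid monolayer, and proteins on this surface control how the droplet grows and how fast its fat is broken down. FIT proteins (*Fitm1*, *Fitm2*) act in the endoplasmic reticulum during droplet formation, perilipins (*Plin2*, *Plin4*, *Plin5*) coat the surface, and CIDE proteins (*Cidec*, *Cideb*) act in droplet fusion and in lipid loading of secreted lipoproteins. *Pnpla2* encodes ATGL, the lipase that takes the first fatty acid off triglyceride, and *G0s2* encodes a protein that inhibits it. *Hsd17b13* encodes a droplet enzyme found mainly in hepatocytes, and *Plin2* is the perilipin that fat-laden hepatocytes are best known for.

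A unique molecular identifier (UMI) marks each RNA molecule, and the values below are mean UMIs per 10000 UMIs of a cell (CP10K), averaged over the cells of a mouse. The 3 wild-type mice gave 1243, 933 and 1094 cells, and the 3 SIRT7-/- mice gave 5609, 2179 and 552 cells. Total depth was lowest in wild-type mouse 2, with 2511947 UMIs, and highest in SIRT7-/- mouse 1, with 11069411 UMIs. Depth per cell ran otherwise: its median was lowest in SIRT7-/- mouse 1, at 1630 UMIs, and highest in SIRT7-/- mouse 3, at 3875 UMIs. Among the 11610 cells, 26 carried 13 barcodes that occurred in more than 1 mouse. Clusters 2 (1758 cells) and 4 (1201 cells) had the highest summed level of 12 hepatocyte markers, at 555 and 359 CP10K, and together form the hepatocyte class. The other clusters lay at 36.8 to 265 CP10K over mice with 20 or more cells, which leaves out cluster 9 (39 cells). The markers were all detected in at least 5% of the cells of every cluster. Clusters 2 and 4 are called by number because none of these markers was among the 10 leading genes of either cluster, and 3 hemoglobin genes were among those of cluster 2. The nuclear RNA *Malat1* separated the clusters: its level ran from 0.398 to 20.9 CP10K over the mice in cluster 2 and from 303 to 532 CP10K in cluster 4. Wild-type mouse 3 contributed only 55 and 46 cells to clusters 2 and 4, SIRT7-/- mouse 3 contributed 64 to cluster 2, and SIRT7-/- mouse 2 contributed 53 to cluster 4.

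*Sirt7* itself was lower in every SIRT7-/- mouse. In cluster 4 its level was 1.41, 1.24 and 1.63 CP10K in wild-type livers and 0.330, 0.362 and 0.186 CP10K in SIRT7-/- livers, a log2 fold change of -2.14 (SE 0.43, limma, adjusted p = 0.0287). In cluster 2 the wild-type mice held 30, 18 and 3 UMIs of *Sirt7* and the SIRT7-/- mice 1, 0 and 0 UMIs (limma, adjusted p = 0.0688), and in the clusters combined the adjusted p was 0.116. *Pcyt2*, which encodes an enzyme of phosphatidylethanolamine synthesis, was named after its values had been seen. It is the nearest coding gene that does not overlap *Sirt7*, at a distance of 436 bp. It measured 14.3, 15.7 and 14.8 CP10K in cluster 4 of wild-type livers, against 0.533, 0.384 and 0.174 CP10K in those of SIRT7-/- mice. In cluster 2 it measured 3.20 ± 0.519 CP10K against 0.0337 ± 0.0363 CP10K (mean ± SD, n = 3 each). The loss of *Sirt7* and the low *Pcyt2* level came together in every SIRT7-/- mouse, so what each contributes to the values below cannot be told apart.

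On the mouse genome build GRCm38 (GENCODE vM21), *Fitm1* is a gene of 2 exons on chromosome 14 (55575617 to 55576954, plus strand), and *G0s2* a gene of 2 exons on chromosome 1 (193272161 to 193273217, minus strand). *G0s2* overlaps *Lamb3* on the other strand, which held 4 UMIs in cluster 2 against 1186 UMIs for *G0s2*. *Plin2* lies on chromosome 4 (86648386 to 86670060, minus strand). *Plin4* (56100591 to 56109803) and *Plin5* (56111601 to 56117596) lie 1798 bp apart on the minus strand of chromosome 17, and *Plin4* overlaps *Hdgfl2* on the other strand. The bases just upstream of *Fitm1*, *G0s2* and *Plin2* are shown because these genes lead the results in hepatocyte cluster 2. They come from RefSeq (GRCm38.p6), in which all 10 genes were matched to 12 promoters, and are written 5′ to 3′ on the strand of each gene, at chr14:55575424-55575616 for *Fitm1*, chr1:193273218-193273438 for *G0s2* and chr4:86670061-86670309 for *Plin2*. Capitals mark TGACCT, the reverse strand of AGGTCA, the core motif that nuclear receptors read.
Fitm1: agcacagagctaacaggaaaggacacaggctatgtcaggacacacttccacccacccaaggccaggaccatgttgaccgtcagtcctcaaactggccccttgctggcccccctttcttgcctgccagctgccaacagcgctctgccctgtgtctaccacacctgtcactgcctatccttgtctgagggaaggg
G0s2: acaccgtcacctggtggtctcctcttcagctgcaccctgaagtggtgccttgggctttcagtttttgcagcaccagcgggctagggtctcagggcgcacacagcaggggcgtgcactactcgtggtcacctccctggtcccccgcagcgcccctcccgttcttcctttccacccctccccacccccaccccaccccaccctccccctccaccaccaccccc
Plin2: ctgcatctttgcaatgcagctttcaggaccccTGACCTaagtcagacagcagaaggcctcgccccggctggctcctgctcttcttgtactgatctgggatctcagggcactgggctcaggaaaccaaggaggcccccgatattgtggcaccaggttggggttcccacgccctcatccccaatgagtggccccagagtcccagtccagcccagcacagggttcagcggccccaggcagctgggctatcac

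In the 250 bases before each start, searched on both strands, AGGTCA was found in *Plin2*, *Plin5* and *Hsd17b13*, beside 14.0% of all 32851 promoters. Of the *Plin5* promoters, 1 held it, at -170 to -165. The *Plin2* match lay 218 to 213 bases before the start, and TATAAA was found in *Cideb* beside 12.4% of promoters. The direct repeat of AGGTCA with 1 base between, in 0.0335% of promoters and overlapping the single motif by construction, CACGTG, in 6.02%, and TGACGTCA, in 1.55%, had no match in the promoters of these genes. The promoters of *Fitm1* and *G0s2* held none of the motifs.

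In cluster 2, *Fitm1* and *G0s2* rose in SIRT7-/- mice. *Fitm1* measured 0.386, 0.363 and 0.420 CP10K in wild-type livers and 1.85, 2.47 and 1.76 CP10K in SIRT7-/- livers. The lowest SIRT7-/- mouse lay above every wild-type mouse, and the means of 0.390 ± 0.0287 and 2.03 ± 0.390 CP10K (SD, n = 3) differed 5.19-fold. These values rest on 27, 23 and 4 UMIs in wild-type livers and 135, 92 and 31 UMIs in SIRT7-/- livers, of which no cell held more than 9. The log2 fold change on the scale of CP10K plus a pseudocount of 0.05 was 2.22 (SE 0.34, limma, adjusted p = 0.00410).

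*G0s2*, the inhibitor of ATGL, measured 1.93, 2.94 and 2.09 CP10K in wild-type livers and 6.20, 6.70 and 6.31 CP10K in SIRT7-/- livers. The genotypes did not overlap, and the SIRT7-/- mice lay closer to each other than the wild-type mice did. Means of 2.32 ± 0.543 and 6.40 ± 0.264 CP10K (SD, n = 3) gave a 2.76-fold difference and a log2 fold change of 1.47 (SE 0.26, limma, adjusted p = 0.0108). Without SIRT7-/- mouse 2 the adjusted p of *G0s2* was 0.0835, while that of *Fitm1* was at most 0.0447 with any 1 mouse left out. With the mouse number as a block, adjusted p was 0.218 for *Fitm1* and 0.275 for *G0s2*, at the same fold changes. *Pnpla2*, the lipase on which *G0s2* acts, measured 0.291, 0.353 and 0.571 CP10K in wild-type livers and 0.436, 0.202 and 0.935 CP10K in SIRT7-/- livers, which overlapped.

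The perilipins *Plin2* and *Plin5* were also highest in the 3 SIRT7-/- mice of cluster 2, without passing the test. *Plin2* measured 5.01, 3.86 and 5.74 CP10K in wild-type livers and 7.95, 9.62 and 9.32 CP10K in SIRT7-/- livers, with a log2 fold change of 0.89 (SE 0.24, limma, adjusted p = 0.122). *Plin5*, the perilipin of oxidative tissues, measured 0.794, 0.643 and 0.565 CP10K against 1.15, 1.26 and 1.06 CP10K, with a log2 fold change of 0.76 (SE 0.34, limma, adjusted p = 0.458). No wild-type mouse reached the level of a SIRT7-/- mouse for either gene. *Plin4* had 0 UMIs in all 6 mice, and 3 counts among the 2852732 UMIs of the cluster set a floor of 0.0105 CP10K, for counting error only.

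Among 8562 genes tested in cluster 2, 12 rose and 29 fell, 0.479% of genes tested. With each mouse centred on its median gene, 14 rose and 12 fell. Of the 10 droplet genes 8 could be tested there and 2 passed. In 4 of these 8 genes every SIRT7-/- mouse lay above every wild-type mouse, where 7.64% of all genes tested did so. The median log2 fold change was 0.50 over the 8 droplet genes and -0.09 over all genes. By adjusted p, *Fitm1* stood at rank 6 and *G0s2* at rank 12 of the 41 genes.

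**Figure D1:**
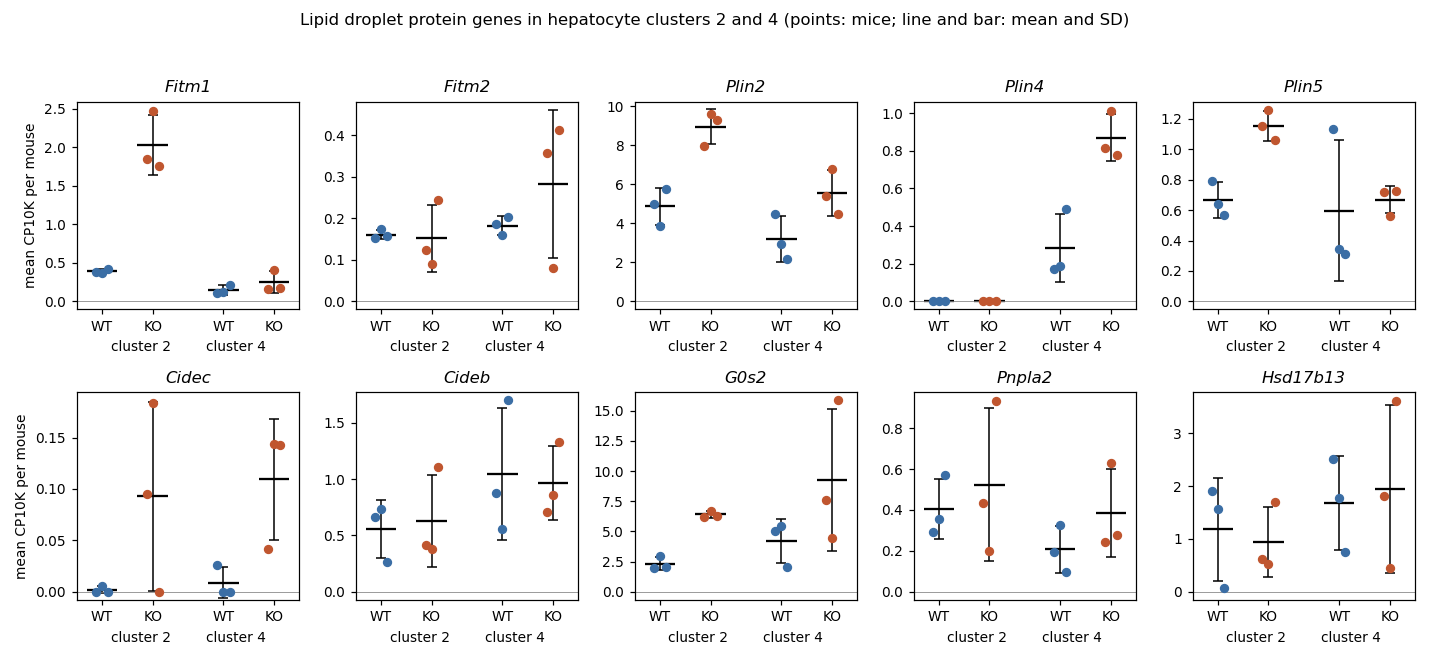
Mean CP10K of the 10 droplet genes in hepatocyte clusters 2 and 4, with a point for each of the 3 wild-type (WT, blue) and 3 SIRT7-/- (KO, orange) mice, a line for the mean and a bar for the SD. In cluster 2 the SIRT7-/- mice lie apart from the wild-type mice for *Fitm1*, *Plin2*, *Plin5* and *G0s2*, and *Plin4* is at 0.

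Other values of cluster 2 moved with genotype as well. The summed level of the 12 periportal landmark genes was 137, 80.9 and 94.5 CP10K in wild-type livers and 55.01, 61.9 and 75.4 CP10K in SIRT7-/- livers, with *Ass1* the most abundant. The 12 hepatocyte markers summed to 755, 810 and 470 CP10K against 491, 326 and 479 CP10K, with *Apoa2* the most abundant, and overlapped. Erythroid markers summed to 104 CP10K in wild-type mouse 1 and 6.30 CP10K in SIRT7-/- mouse 1, and to at most 0.307 CP10K in the others. Without cells over 100 CP10K of hemoglobin the log2 fold changes stayed at 2.22 for *Fitm1* and 1.46 for *G0s2*. Neutrophil markers overlapped between the genotypes, and *Ly6g* was at 0. Of 5 adipocyte markers only *Fabp4* was in the table, at 0.0892 CP10K in wild-type livers and 0.0940 CP10K in SIRT7-/- livers. The median UMI count per cell was 1319.5, 1254.5 and 1022 in wild-type livers and 1126, 1286 and 1960.5 in SIRT7-/- livers. The part of the landmark genes in the result was not tested.

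In cluster 4, no droplet gene passed the limma test, with 3 of 10 at an unadjusted p under 0.05 beside 10.2% of all genes, and *Plin4* was the one whose genotypes lay apart with the most UMIs. *Plin4*, a perilipin best known from fat tissue and muscle, measured 0.170, 0.190 and 0.490 CP10K in wild-type livers and 0.814, 1.011 and 0.780 CP10K in SIRT7-/- livers. All SIRT7-/- mice lay above all wild-type mice, though wild-type mouse 3 rested on 4 UMIs and SIRT7-/- mouse 2 on 5 UMIs. The log2 fold change was 1.58 (SE 0.47, limma, adjusted p = 0.215), and voom on summed UMIs gave 1.89 with an adjusted p of 0.0288. *Cidec*, named for droplet fusion, had 2, 0 and 0 UMIs in wild-type livers and 3, 1 and 15 UMIs in SIRT7-/- livers, so it passed the filter on low values only through the SIRT7-/- mice.

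*Fitm1* was low in cluster 4, at 0.105, 0.124 and 0.217 CP10K in wild-type livers and 0.156, 0.411 and 0.177 CP10K in SIRT7-/- livers, which overlapped. *G0s2* measured 5.03, 5.44 and 2.09 CP10K against 7.57, 4.47 and 15.9 CP10K, where SIRT7-/- mouse 3 stood far above and SIRT7-/- mouse 2 lay within the wild-type range. *Plin2* measured 4.49, 2.93 and 2.18 CP10K against 5.40, 6.80 and 4.46 CP10K, so that only wild-type mouse 1 reached the lowest SIRT7-/- mouse. Of 10272 genes tested in cluster 4, 0.234% passed, and of the 10 droplet genes 2, *Plin4* and *Cidec*, had every SIRT7-/- mouse above every wild-type mouse, where 12.9% of all genes did, and without *Cidec* 1 is left. The median log2 fold change was 0.64 over the droplet genes, 0.53 without *Cidec* and 0.20 over all genes.

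Several other values separated the genotypes in cluster 4. The 7 neutrophil markers summed to 0.0406, 0.156 and 0.0313 CP10K in wild-type livers and 12.8, 7.01 and 0.259 CP10K in SIRT7-/- livers, with *S100a9* the most abundant and none at 0. Stellate cell markers summed to at most 0.165 CP10K in wild-type livers and at least 0.237 CP10K in SIRT7-/- livers, with *Dcn* the most abundant and *Col1a1* and *Des* at 0. Plasmacytoid dendritic cell markers, led by *Bst2*, summed to at most 2.98 CP10K and at least 3.53 CP10K. The 10 pericentral landmark genes summed to 38.1, 43.8 and 61.7 CP10K against 22.1, 21.7 and 27.0 CP10K, with *Cyp2e1* the most abundant. The nuclear RNA *Neat1* measured 58.0, 42.2 and 34.0 CP10K against 112, 114 and 69.6 CP10K. The median UMI count per cell overlapped, at 2411, 2778.5 and 1381 in wild-type livers and 1350, 993 and 3823 in SIRT7-/- livers. Among the SIRT7-/- mice, mouse 2 was thus the shallowest and mouse 3 the deepest. The part of all these values in the cluster 4 levels was not tested.

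Since *Fitm1* passed the test in one hepatocyte cluster and not in the other, the difference was tested within each mouse. The log2 level of *Fitm1* in cluster 4 minus cluster 2 was -1.50, -1.25 and -0.82 in wild-type livers and -3.20, -2.45 and -2.99 in SIRT7-/- livers. All SIRT7-/- differences lay below all wild-type differences, by -1.69 on average (SE 0.41), but the adjusted p over all genes was 0.395 by limma. For *Plin4* the difference was 1.58 in the other direction (SE 0.58, limma, adjusted p = 0.423), and since cluster 2 held none of its UMIs this number depends on the pseudocount. For *G0s2* it was -0.40 (SE 0.71, limma, adjusted p = 0.843), with overlap. In this comparison 0.0% of the 9855 genes passed, with 1109 at an unadjusted p under 0.05.

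With both clusters combined, no droplet gene passed limma, beside 0.101% of 9855 genes, or voom. At an unadjusted p under 0.05 stood 4 of 10, or 3 without *Cidec*, beside 7.36% of all genes. *Fitm1*, *Plin2*, *Cidec* and *G0s2* had every SIRT7-/- mouse above every wild-type mouse, which makes 4 of 10 beside 9.84% of all genes. *Cidec* was tested here only through its level in SIRT7-/- mice, and without it 3 are left. *Fitm1* measured 0.274, 0.316 and 0.328 CP10K in wild-type livers and 1.10, 2.09 and 0.479 CP10K in SIRT7-/- livers (log2 fold change 1.62, SE 0.46, limma, adjusted p = 0.348). The low value of SIRT7-/- mouse 3 goes with its makeup of 64 cells from cluster 2 and 271 from cluster 4. With equal weight to the clusters, an alternative chosen after seeing the data, the log2 fold change of *Fitm1* was 1.88 with an adjusted p of 0.0138. *G0s2* measured 3.17, 3.44 and 2.09 CP10K against 6.80, 6.28 and 14.0 CP10K (log2 fold change 1.56, SE 0.45, limma, adjusted p = 0.352). *Cidec* had 2, 2 and 0 UMIs against 9, 6 and 15 UMIs. The 12 hepatocyte markers summed to 702, 738 and 396 CP10K in wild-type livers and 392, 294 and 374 CP10K in SIRT7-/- livers, led by *Apoa2*. Plasmacytoid dendritic cell markers summed to 2.70, 2.97 and 2.15 CP10K against 3.11, 6.20 and 5.77 CP10K. Most of that difference was *Bst2* alone, with means of 1.98 and 4.29 CP10K. The pericentral landmarks, led by *Rgn*, summed to 41.6, 66.5 and 61.7 CP10K against 32.8, 39.8 and 35.8 CP10K. The part of these differences in the combined values was not tested.

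**Figure D2:**
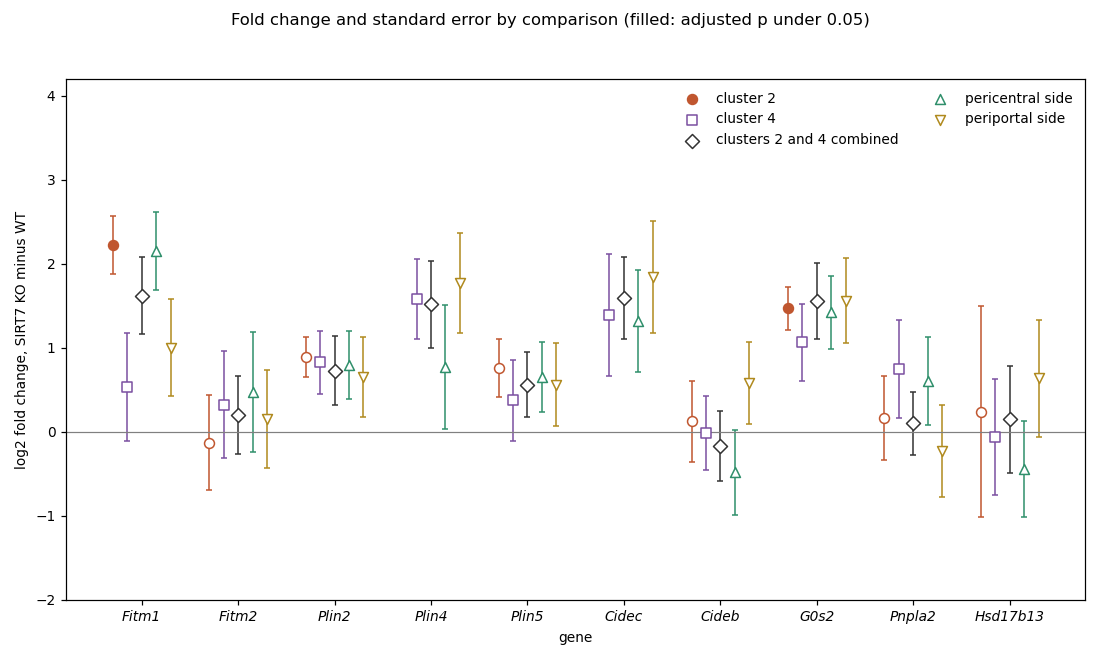
Log2 fold change (SIRT7-/- minus wild-type) with its standard error for the 10 droplet genes on the x axis in 5 hepatocyte comparisons, with filled symbols for an adjusted p under 0.05. *Fitm1* and *G0s2* in cluster 2 are the filled symbols, and *Fitm1* ranges from 0.53 in cluster 4 to 2.22 in cluster 2. Values of *Cidec* rest on few UMIs.

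*Fitm2*, *Cideb*, *Pnpla2* and *Hsd17b13* overlapped between the genotypes in both clusters. *Fitm2*, the FIT protein gene expressed in most tissues, measured 0.161 ± 0.0109 CP10K in wild-type livers and 0.152 ± 0.0807 CP10K in SIRT7-/- livers in cluster 2, and 0.182 ± 0.0222 and 0.283 ± 0.178 CP10K in cluster 4 (SD, n = 3). *Cideb*, which serves lipidation of secreted lipoproteins, measured 0.555 ± 0.257 and 0.631 ± 0.410 CP10K in cluster 2 and 1.04 ± 0.589 and 0.967 ± 0.326 CP10K in cluster 4. *Hsd17b13* varied widely between mice of a genotype. In cluster 2 it measured 1.90, 1.56 and 0.0770 CP10K in wild-type livers and 0.615, 0.517 and 1.70 CP10K in SIRT7-/- livers. In cluster 4 the same gene measured 2.52, 1.78 and 0.755 CP10K against 1.81, 0.443 and 3.61 CP10K, so that mouse 3 was the lowest of the wild-type and the highest of the SIRT7-/- mice in both clusters.

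Hepatocytes differ along the lobule from the central vein to the portal tract. The cells of both clusters were placed on a zone index from 10 pericentral and 12 periportal landmark genes, with 1435 cells on the pericentral and 1524 on the periportal side of 0.5 and 664 cells between 0.4 and 0.6. These sides are ranges of the index, not cell types, and since summed landmark levels differed between the genotypes, the same index may not mark the same place in both. On the pericentral side *Fitm1* measured 0.229, 0.333 and 0.314 CP10K in wild-type livers and 1.64, 2.31 and 0.803 CP10K in SIRT7-/- livers (log2 fold change 2.15, SE 0.47, limma, adjusted p = 0.124). On the periportal side it measured 0.296, 0.263 and 0.343 CP10K against 0.666, 1.78 and 0.210 CP10K, where SIRT7-/- mouse 3 lay below the wild-type mice. Leaving out the 664 cells near the cut raised the pericentral log2 fold change to 3.05 with an adjusted p of 0.0140.

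The periportal minus pericentral log2 level of *Fitm1* was 0.31, -0.29 and 0.11 in wild-type livers and -1.24, -0.36 and -1.72 in SIRT7-/- livers. These did not overlap, and their difference was -1.15 (SE 0.61, limma, adjusted p = 0.666; exact permutation p = 0.1, the smallest that 3 against 3 mice allow). In that comparison 0.0% of 9855 genes passed, with 611 at an unadjusted p under 0.05. *Hsd17b13* also lay apart there, in the other direction, with a difference of 1.08 (SE 0.52, limma, adjusted p = 0.666). Within cluster 2 alone, *Fitm1* was higher in SIRT7-/- mice on both sides: 2.07, 2.56 and 1.95 CP10K against 0.310, 0.390 and 0.639 CP10K on the pericentral side, and 1.53, 2.33 and 1.08 CP10K against 0.424, 0.253 and 0.224 CP10K on the periportal side. Each SIRT7-/- mouse was lower on the periportal side, though the last value rests on 14 cells and 2 UMIs.

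In 4 equal bins of the index, from pericentral to periportal, the SIRT7-/- means of *Fitm1* were 1.55, 1.604, 1.08 and 0.705 CP10K and the wild-type means 0.224, 0.395, 0.342 and 0.263 CP10K. Within cluster 2 the SIRT7-/- means, over mice with 20 or more cells in a bin, were 2.07, 2.31, 1.91 and 1.99 CP10K, of which the last 2 leave out mouse 3. There SIRT7-/- mouse 1 measured 2.07, 2.06, 1.56 and 1.501 CP10K and mouse 2 measured 2.51, 2.60, 2.25 and 2.47 CP10K. *G0s2* in the combined cells was lowest in the first bin in SIRT7-/- mice, at 6.03, 8.93, 9.54 and 10.8 CP10K, against 2.41, 3.002, 3.47 and 2.82 CP10K in wild-type mice. SIRT7-/- mouse 3 set much of that slope, from 8.39 to 17.7 CP10K, while SIRT7-/- mouse 1 went from 5.01 to 7.83 CP10K and mouse 2 from 4.69 to 6.94 CP10K. *Plin2* was flatter, at 7.55, 7.36, 6.97 and 6.498 CP10K in SIRT7-/- and 4.01, 4.39, 4.12 and 4.35 CP10K in wild-type mice. *Plin4* was highest at the periportal end in SIRT7-/- mice, with means from 0.126 to 0.869 CP10K. Of the 408 cluster 4 cells of SIRT7-/- mouse 1, 298 lay on the periportal side, and the part of cluster makeup in this order was not tested.

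On the pericentral side *Fitm1*, *Plin2*, *Plin5*, *Cidec* and *G0s2* had every SIRT7-/- mouse above every wild-type mouse, 5 of 10 beside 7.06% of all genes, and 0.103% of genes passed the test. On the periportal side *Plin2*, *Plin4*, *Cidec* and *G0s2* did, 4 of 10 beside 12.2%, and 0.181% of genes passed. *Cidec* passed the filter on low values only through SIRT7-/- mice on both sides, and without it 4 and 3 genes are left. No droplet gene passed limma or voom on either side. At an unadjusted p under 0.05 stood 3 of 10 on each, beside 5.68% of all genes on the pericentral and 9.10% on the periportal side. Without *Cidec* 2 are left on each. *G0s2* had log2 fold changes of 1.42 (SE 0.44, limma, adjusted p = 0.484) and 1.56 (SE 0.51, limma, adjusted p = 0.353), and the within-mouse difference between the sides was 0.14 (SE 0.42, limma, adjusted p = 0.918).

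**Figure D3:**
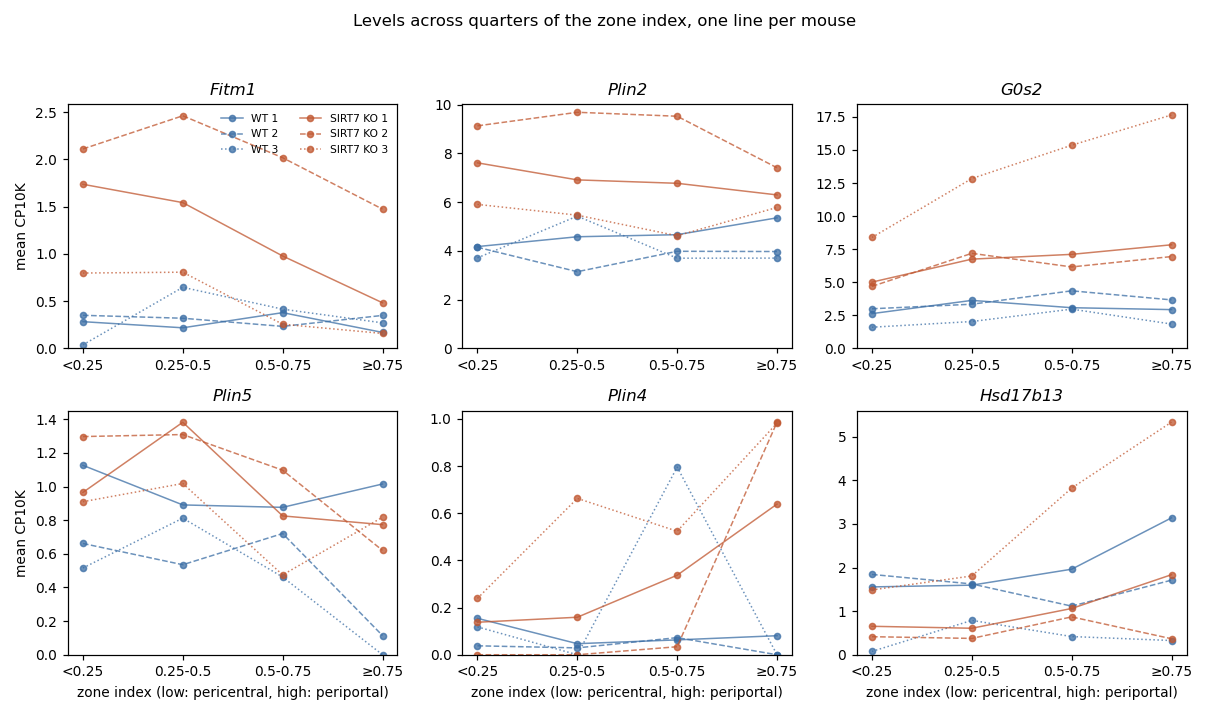
Mean CP10K of 6 droplet genes in 4 equal bins of the zone index, from the pericentral (left) to the periportal end (right), with a line for each mouse (wild-type blue, SIRT7-/- orange). The SIRT7-/- lines of *G0s2* lie above the wild-type lines in all 4 bins, and those of *Fitm1* are lowest at the periportal end, in cells of clusters 2 and 4 combined.

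Outside hepatocytes, *Plin2* and *Pnpla2* were seen across most clusters. The clusters come from the same cells, so their levels are given with no test. Free RNA from broken cells can enter any droplet, and as a measure of it the median level of 9 secreted protein genes of hepatocytes in macrophage-like cluster 0 (3709 cells, led by *Clec4f* and *C1qa*) was 14.6% of the hepatocyte level. *G0s2* was at 6.77% there, above it in 0 of 6 mice, and *Hsd17b13* at 10.3%, above it in 2 of 6 mice. *Pnpla2*, in contrast, was at 157% of the hepatocyte level and above free RNA in 6 of 6 mice, and its mean of 0.524 CP10K in cluster 0 was the highest of all clusters. That mean and the 0.464 CP10K of cluster 2 differed by less than the spread over mice (SD 0.130 and 0.263). *Plin2* was at 43.3% in cluster 0, above free RNA in 6 of 6 mice. *Fitm2*, with 55 of its 239 UMIs in cluster 0, was at 27.8% there, above free RNA in 4 of 6 mice, and at 51.9% in T cell-like cluster 1 beside 26.3% for free RNA, above it in 6 of 6 mice.

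Cluster levels in this paragraph are means over mice with 20 or more cells. That leaves 2 to 5 mice in clusters 5 to 8 and leaves out cluster 9 (39 cells), where no mouse had 20. *Plin2* was highest in cluster 2 (6.92 ± 2.39 CP10K, SD over 6 mice) and then cluster 4 (4.37 ± 1.67). After these came B cell-like cluster 8, neutrophil-like cluster 7, endothelial-like cluster 5, cluster 0, unnamed cluster 3 and T cell-like cluster 1. They ran from 2.99 down to 1.58 CP10K, with neighbors within their spread. Plasma cell-like cluster 6 was lowest at 0.3499 CP10K. The *Plin2* level in cluster 8 was at 51.6% of the hepatocyte level beside 51.2%, above it in 1 of 2 mice, and in cluster 6 at 7.91% beside 8.56%, above it in 1 of 4 mice. *Fitm1* stood at 1.21 CP10K in cluster 2 and at most 0.213 CP10K elsewhere. *Plin5* (0.912 and 0.633 CP10K), *Cideb* (0.593 and 1.005 CP10K) and *Hsd17b13* (1.06 and 1.82 CP10K) were highest in clusters 2 and 4, in this order of clusters. Of the 169 UMIs of *Plin4*, cluster 4 held 159, cluster 0 held 5 and no other cluster more than 2. *G0s2* stood at 6.74 CP10K in cluster 4, 4.36 CP10K in cluster 2 and 2.77 CP10K in neutrophil-like cluster 7, where it was above free RNA in 3 of 3 mice. *Cidec* was too sparse to order, and its highest mean, in cluster 8, is 1 UMI.

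Of the other clusters, 0, 1 and 3 had 20 cells in every mouse and were tested. No droplet gene passed limma or voom, where 0.211%, 0.13% and 0.0308% of genes passed limma, and 7, 8 and 7 of the 10 genes could be tested. At an unadjusted p under 0.05 stood 0, 1 and 0 of them, beside 10.6%, 7.11% and 5.97% of all genes. *Fitm1* in T cell-like cluster 1 had every SIRT7-/- mouse higher, at 0.0235, 0.0578 and 0.0702 CP10K against 0.370, 0.220 and 0.539 CP10K (log2 fold change 2.04, SE 0.46, limma, adjusted p = 0.178). These means rest on 1, 2 and 3 UMIs against 31, 27 and 8 UMIs, at a median of 19.9% of the hepatocyte level beside 26.3% for free RNA, which they passed in 2 of 6 mice. In cluster 1 the 6 NK cell markers also lay apart, at 17.2, 23.9 and 19.3 CP10K against 24.4, 27.3 and 51.4 CP10K in SIRT7-/- livers, led by *Nkg7*. Neutrophil markers (at most 0.165 against at least 0.268 CP10K, led by *S100a9*, *Ly6g* at 0) and *Neat1* (at most 1.49 against at least 2.06 CP10K) were higher there too. The pericentral landmarks (at least 14.2 against at most 12.3 CP10K) and periportal landmarks (at least 20.9 against at most 17.6 CP10K) were lower, and the part of these values was not tested. In unnamed cluster 3, *Pnpla2* had every SIRT7-/- mouse lower, at 0.457, 0.416 and 0.360 CP10K against 0.347, 0.300 and 0.270 CP10K (log2 fold change -0.38, SE 0.32, limma, adjusted p = 0.903). In cluster 0, *Plin2* (2.22 ± 0.532 and 2.46 ± 0.635 CP10K) and *Pnpla2* (0.486 ± 0.154 and 0.563 ± 0.119 CP10K) overlapped between the genotypes.

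**Figure D4:**
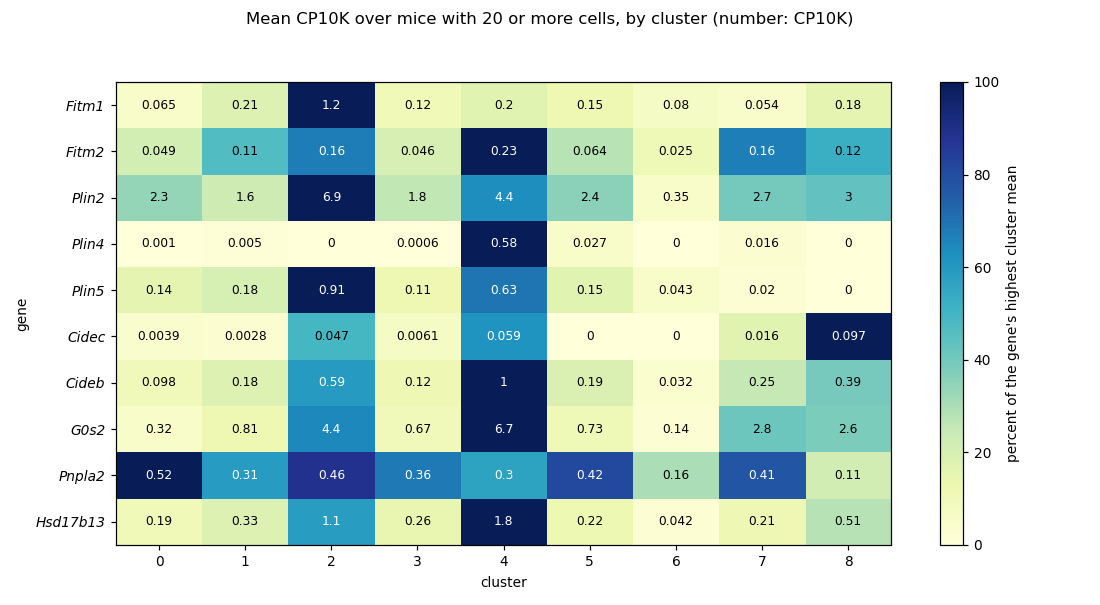
Mean CP10K (numbers) of the 10 droplet genes on the y axis in clusters 0 to 8 on the x axis, over mice with 20 or more cells, shaded by the percent of each gene's highest cluster. *Plin4* stands out in cluster 4, *Fitm1* in cluster 2, and *Pnpla2* is spread over most clusters.

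Of the genes that work around the droplet, in 5 lists, 1 passed in cluster 2, where 0.479% of all genes did. In lipid droplet formation and coat, 0 of the 11 genes tested in cluster 2 passed, with a median log2 fold change of -0.37 beside -0.09 over all genes. *Rab18*, a small GTPase of droplets, measured 1.53, 1.72 and 2.67 CP10K in wild-type livers and 1.52, 2.03 and 2.45 CP10K in SIRT7-/- livers. In triglyceride synthesis 0 of 12 passed, with a median of -0.32. *Acsl1*, which activates fatty acids, measured 5.55, 5.97 and 5.58 CP10K against 1.97, 1.93 and 4.45 CP10K, with every SIRT7-/- mouse below every wild-type mouse (log2 fold change -1.13, SE 0.30, limma, adjusted p = 0.115). In cluster 4 its genotypes overlapped.

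Among lipases and their partners, 1 of 10 passed in cluster 2 and the median was -0.80. That gene was *Ces1g*, a carboxylesterase of hepatocytes, which fell from 2.03, 3.48 and 2.08 CP10K to 0.635, 0.430 and 1.30 CP10K (log2 fold change -1.71, SE 0.38, limma, adjusted p = 0.0477). With the mouse number as a block its adjusted p was 0.485, without wild-type mouse 2, SIRT7-/- mouse 1 or SIRT7-/- mouse 2 it was 0.249, 0.187 and 0.266, and without wild-type mouse 3 it was 0.0892. Of 18 alternatives, 12 ended the call, among them a pseudocount of 0.5 (0.0562), a filter of 0.2 CP10K (0.122), summed UMIs (0.0691) and means of log values (0.293). In cluster 4 it was lowest in the 3 SIRT7-/- mice too, at 0.414, 0.302 and 0.812 CP10K against 1.31, 1.97 and 1.27 CP10K, without passing (limma, adjusted p = 0.164). *Lipa*, the acid lipase of lysosomes, rose in macrophage-like cluster 0, from 2.87, 1.57 and 2.66 CP10K to 6.38, 5.48 and 6.31 CP10K (log2 fold change 1.38, SE 0.23, limma, adjusted p = 0.0311). With the block its adjusted p was 0.000146, and with 1 mouse left out it lay between 0.0149 and 0.216, below 0.05 only without SIRT7-/- mouse 1. With no filter on low values it was 0.379, and without cells over 3 times the median UMIs it was 0.0540. Cluster 0 held 55, 46 and 244 cells of wild-type mice and 2645, 635 and 84 cells of SIRT7-/- mice. Cell type markers were not compared between the genotypes there, so the part of its makeup was not tested. Of the 10 genes of this list tested in cluster 0, 1 had an estimate above 0, *Lipa* itself. The list median there was -0.66 beside -0.03 over all genes. *Ces1d* and *Ces1f* overlapped between the genotypes in both clusters, as did the lipase gene *Mgll*.

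Of the 5 triglyceride export genes none passed in any comparison, and 1 of 5 had an estimate above 0 in cluster 2, with a median of -0.83. *Apob*, the protein of secreted very low density lipoprotein, measured 6.79, 10.4 and 3.79 CP10K against 2.34, 0.830 and 5.12 CP10K, and *Mttp*, which loads it, 1.03, 1.18 and 0.178 CP10K against 0.389, 0.276 and 1.14 CP10K. Both overlapped. Of the 12 transcription factor genes none passed in any comparison, with medians of -0.20 in cluster 2 and 0.58 in cluster 4, where the median of all genes was 0.20. *Mlxipl*, which encodes the glucose-sensing factor ChREBP and is itself among the leading genes of cluster 4, measured 11.5, 11.5 and 10.4 CP10K there against 21.2, 18.2 and 15.9 CP10K. *Srebf1*, the gene of the lipogenic factor SREBP1, measured 2.17, 2.26 and 3.58 CP10K against 7.57, 2.81 and 6.69 CP10K and overlapped. *Cebpa* in cluster 4 lay below every wild-type mouse in all 3 SIRT7-/- mice, at 1.48, 1.37 and 1.79 CP10K against 2.66, 3.05 and 1.95 CP10K (limma, adjusted p = 0.532).

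**Figure D5:**
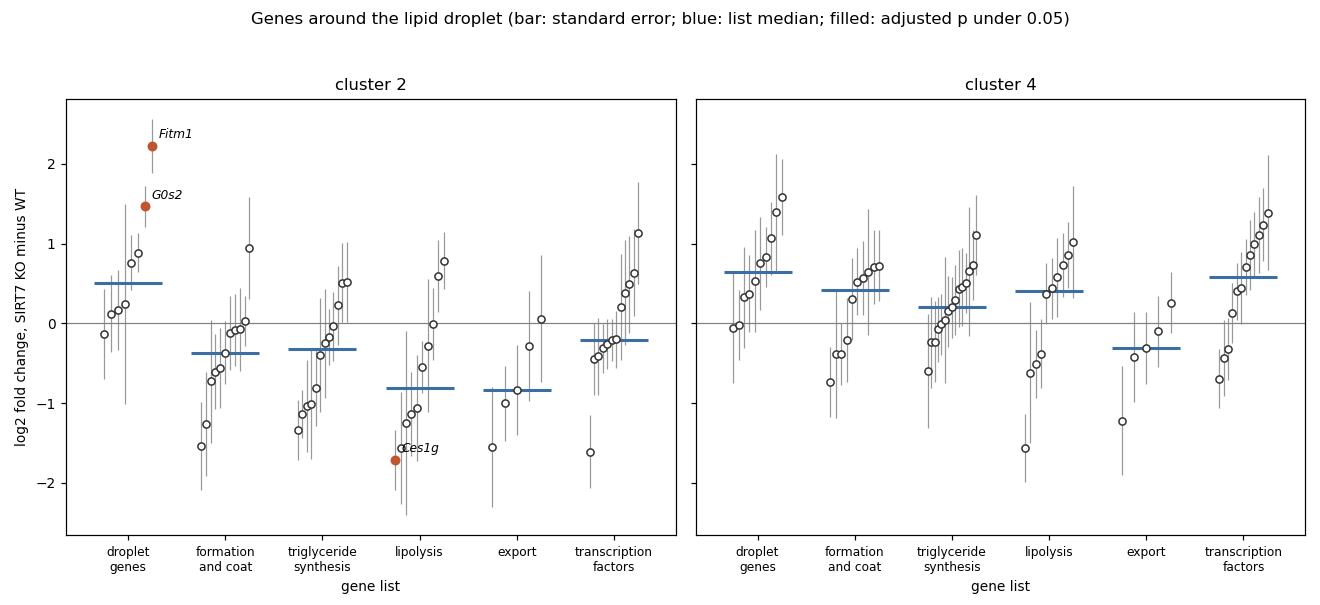
Log2 fold change (SIRT7-/- minus wild-type, bars for standard errors) of the droplet genes and of 5 lists of genes around the droplet, in cluster 2 and cluster 4, with list medians in blue. *Fitm1* and *G0s2* lie above the other lists in cluster 2, and *Ces1g* is the other filled point.

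The genes most like the droplet genes across the 12 means of 6 mice and both zone sides were ranked among 3249 genes by Pearson correlation. These means share libraries and depth and span both genotypes. A shared difference between the genotypes thus raises the correlation, and the values are descriptions. For *Fitm1* they were *Fabp2*, a fatty acid-binding protein gene (r = 0.948), *Mif* (0.904) and *Rbx1* (0.901). For *Plin2* they were *Aldoa* (0.890), *Pnpla7* (0.889) and *Fabp2* (0.888). For *G0s2* they were *Abhd11* (0.910), *Slc25a22* (0.906) and *Hfe2* (0.899). *Plin5* was followed by *Cbr1* (0.937), *Nfu1* (0.886) and *Dph3* (0.847), *Cideb* by *Man2a1* (0.926), *Retreg2* (0.894) and *Hs6st1* (0.889), and *Hsd17b13* by *Cisd2* (0.914), *Tm4sf4* (0.909) and *Pex11g* (0.888).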

How the data were processed

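Libraries were made from the livers of 3 wild-type and 3 SIRT7-/- mice on the 10x Genomics Chromium 3′ platform. The authors aligned reads to mm10 with Cell Ranger 6.0.0, removed cells with fewer than 500 genes or over 5% mitochondrial reads and genes in fewer than 3 cells, and scaled each cell to 10000 counts. The deposited values are the natural log of CP10K plus 1, made by the authors, and depth is 2511947 to 11069411 UMIs per mouse. All 12961041 values above 0 gave whole UMIs within 0.02. The authors compared cells with MAST, where cells are the replicates. Here the mouse was the replicate, and no column of samples was left unused.

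Cells were clustered with scanpy 1.11.5 and leidenalg 0.10.2 (1000 variable genes, 50 principal components, 3 neighbors from each mouse, resolution 0.35), leaving out 66 droplet and pathway genes, 16 of which were among the variable genes when left in. No authors' annotation was used. Scrublet marked 46 cells (0.396%), too few to have worked, and no cells were removed in the main comparisons. In each class with 20 cells in every mouse, log2(mean CP10K + 0.05) was compared with limma 3.58.1 in R 4.3.3 (eBayes with trend and robust, two-sided), over genes averaging 0.05 CP10K or more, with Benjamini-Hochberg adjustment over all of them and a threshold of 0.05. The test was checked on simulated data. Of 200 genes given a change of the same size, it recovered 88.0% in cluster 2 but 57.0% in cluster 4. The latter was the lowest share of the classes, and the highest was 91.5% in cluster 0.

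The droplet genes and all lists were chosen with earlier results of these data known. Named genes are the 10 members, *Sirt7*, pathway genes past the threshold, the 3 most abundant of each list, leading genes of clusters and the 3 genes most like each member with a mean of at least 0.5 CP10K. Not all named by this rule are printed with values, and *Pcyt2* was added after its values were seen. Same-numbered mice deviated together in the combined hepatocyte clusters (correlations 0.118, 0.214 and 0.119) and on the pericentral side (0.198, 0.295 and 0.264) but not in cluster 2 (0.118, -0.222 and -0.325), and no label says that a number marks a litter or a day, so a fit with the number as a block was an alternative. Other alternatives were another pseudocount, other filters, summed UMIs, means of log values, voom, median centring, leaving out each mouse, clustering with the droplet genes, leaving out doublets or cells near the zone cut and, added after seeing the data, leaving out cells over 3 times the median UMIs or over 100 CP10K of hemoglobin, equal weight of clusters 2 and 4, and the comparison between them.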

Additional observations from a re-analysis of the deposited data

How the results depend on the processing

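Alternatives were run for 22 fold changes of droplet genes that had all SIRT7-/- mice on one side of all wild-type mice. Of these, 4 were of the sparse *Cidec* and 2 were of *Fitm1* in the difference between classes. *Pnpla2* in cluster 3, *Plin4* between clusters 4 and 2 and *Hsd17b13* between the zone sides also lay apart but were not among them. Choosing by separation largely fixes the direction of the 22. Of the 402 values, 394 stayed on the same side of the threshold, 3 lost the call and 5 gained it. The main fit called only 2 of the 22, *Fitm1* and *G0s2* in cluster 2, and all 3 losses were theirs. The rest could stay only by remaining uncalled, so most of the 394 say nothing on how firm a call is. In cluster 2 the paired fit with the mouse number as a replicate block gave 0 droplet genes past the threshold, 2 without the block, and 2 genes in all instead of 41. Leaving out 1 mouse gave 1 to 2 droplet genes there, and without SIRT7-/- mouse 2 *G0s2* had an adjusted p of 0.0835. Voom on summed UMIs gave 3 in cluster 2, where *Plin2* had a log2 fold change of 0.98 and a limma adjusted p of 0.0125, and 1 in cluster 4, *Plin4*. On the pericentral side leaving out a mouse gave 0 to 1, with *Fitm1* at 2.56 and an adjusted p of 0.0222 without SIRT7-/- mouse 3, and leaving out cells near the zone cut gave 1. With equal weight of both clusters the combined class gave 1. The block changed no other call of a droplet gene. The causes were not tested.

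Counts over all genes moved more: 2 (block) to 420 (voom) in cluster 2, 3 to 150 in cluster 4, 0 to 45 in the combined clusters, 1 to 53 on the pericentral and 1 to 52 on the periportal side, 1 to 144 in cluster 0, 3 to 135 in cluster 1, 0 to 127 in cluster 3, and 0 to 9 between clusters 4 and 2. Median centring moved the median of all genes in cluster 2 from -0.09 to 0.08, and the split of higher and lower calls from 12 and 29 to 14 and 12 there, from 9 and 15 to 2 and 11 in cluster 4, from 4 and 14 to 0 and 12 on the periportal side and from 2 and 8 to 1 and 10 in the combined clusters. *Ces1g* in cluster 2 lost its call under 12 of 18 alternatives (adjusted p 0.00893 to 0.485) and *Lipa* in cluster 0 under 7 of 18 (0.000146 to 0.379). Between the sides none passed under any alternative. Depth limits *Cidec*, *Plin4* and *Fitm2* most, with 49, 169 and 239 UMIs in the table.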

Other observations

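Among the genes called in cluster 2 were *Fabp1*, *Fabp2* and *Fabp5*, which encode proteins that bind fatty acids in the cytosol. All genes in this paragraph were chosen after their values were seen, and the gene family was not tested. *Fabp4*, of the same family, measured 0.0892 CP10K in wild-type against 0.0940 CP10K in SIRT7-/- mice and overlapped. *Fabp2* measured 1.72 ± 0.163 CP10K in wild-type livers and 7.64 ± 1.20 CP10K in SIRT7-/- livers (n = 3, SD; log2 fold change 2.11, SE 0.25, limma, adjusted p = 0.000182). *Fabp5* varied widely between SIRT7-/- mice, at 2.27, 1.79 and 1.03 CP10K against 8.08, 18.1 and 30.06 CP10K (3.30, SE 0.48, limma, adjusted p = 0.0269). *Fabp1*, a leading gene of this cluster, measured 181 ± 19.8 against 406 ± 29.6 CP10K (1.17, SE 0.15, limma, adjusted p = 0.000301). The peroxisomal thiolase gene *Acaa1b* measured 15.3 ± 2.27 against 31.4 ± 2.20 CP10K (1.04, SE 0.20, limma, adjusted p = 0.0193). Among the 29 genes that fell, *Car3* measured 28.1 ± 8.74 against 11.8 ± 0.825 CP10K (-1.20, SE 0.23, limma, adjusted p = 0.0183). Apart from *Fabp4*, the genotypes did not overlap for these genes. With the mouse number as a block, 0 genes of cluster 2 were called higher and 2 lower, so every call of a higher gene in this paragraph is lost.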
